A study of Mus musculus with 40 samples.

Results

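The 8 genes of cholesterol synthesis and its control described here are Hmgcs1, Idi1, Fdps, Fdft1, Sqle, Lss, Srebf2 and Insig1, and they were chosen by name. Once overlap marks had been removed from the gene names, 7 of the 8 had a row among the 24732 genes listed for each RNA-seq library of mouse follicular (FO) B cells. No row carried the name Hmgcs1, so this gene is not analysed here. The names of Fdft1 and Lss carry a mark for overlap with another gene model. Part of their reads may belong to a neighbour, and their values are uncertain.

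Cholesterol is made from acetyl-CoA by way of mevalonate and activated isoprene units. Hmgcs1 acts early, before mevalonate, Idi1 interconverts the isoprene units, and Fdps joins them into farnesyl diphosphate, from which protein prenyl groups, ubiquinone and dolichol also branch off. Fdft1 joins farnesyl diphosphate into squalene, Sqle oxidises squalene, and Lss closes the rings to give lanosterol. Srebf2 encodes SREBP2, a transcription factor held in the membrane of the endoplasmic reticulum that is cleaved when sterols run low and then switches on the genes of the route. Insig1 encodes a protein that keeps SREBP2 and its escort in the endoplasmic reticulum when sterols are plentiful, and its own gene is a target of SREBP2. B cells that enlarge and divide need sterol for new membrane.

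Of the 40 samples in the series, the 28 RNA-seq libraries were used, and 8 ATAC-seq and 4 ChIP-seq samples were left aside. All RNA-seq libraries were made from FACS-sorted cells of C57BL/6 mice with the MD4 transgene, which gives the B cells a single receptor that binds hen egg lysozyme (HEL). The ages of the mice are not given in the sources used here. Ikzf1 encodes Ikaros, a zinc finger transcription factor, and its floxed (fl) allele was deleted by Cd23-cre, which acts in maturing B cells. Naive cells, sorted directly, gave 2 libraries of the Ikaros-deficient genotype Cd23-cre Ikzf1(fl/-). Their controls were 3 libraries of Cd23-cre Ikzf1(fl/+) and another 2 from Ikzf1(fl/+) mice that lacked Cre. HEL cells were sorted 1 day after intravenous HEL, with 5 libraries from Ikzf1(fl/fl) mice that lacked Cre and 5 from Ikaros-deficient Cd23-cre Ikzf1(fl/fl) mice. Anergic cells came from mice with a second transgene, ML5, which supplies soluble HEL throughout life, and were Ikzf1(fl/fl) without Cre (replicate 1), Ikzf1(fl/+) without Cre (replicate 2) and Cd23-cre Ikzf1(fl/+) (replicate 3). CpG cells were stimulated in vitro for 1 day with CpG DNA, the ligand of Tlr9, with 4 libraries from Ikaros-deficient Cd23-cre Ikzf1(fl/-) cells and 4 from Cd23-cre controls with the fl/+ genotype. Among CpG cells and the naive Cd23-cre cells, both genotypes carry Cre and the controls keep 1 intact allele, while among HEL cells only the Ikaros-deficient arm carries Cre, so there Cre and the loss of Ikaros cannot be told apart.

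Recovered depth ran from 12126702 to 25424364 reads per library. Ikzf1 was lower in every Ikaros-deficient library than in its controls, at 57.3 to 65.3 TPM (transcript abundance scaled for gene length and library size) against 120 to 136 among naive Cd23-cre libraries, 60.3 to 79.3 against 195 to 261 after HEL, and 31.7 to 39.5 against 135 to 172 after CpG. In limma it was called lower after HEL (-1.65 ± 0.09) and after CpG (-1.99 ± 0.10) but not between the naive arms (-1.05 ± 0.17, adjusted p = 0.0859). Library numbers given in the sample titles start with 36, 49 or 57, which marks 3 library-number series of unstated origin. Series 36 holds 4 naive libraries, series 49 all CpG libraries, and series 57 all HEL and anergic libraries and 3 naive control libraries (2 without Cre and Cd23-cre Ikzf1(fl/+) replicate 3). None of 8 markers of FO B cells, among them Ms4a1 and Fcer2a, was under 1 TPM throughout any group. Their summed level was 12000 to 17300 TPM in libraries of directly sorted cells and 1990 to 3620 TPM after CpG. Transcripts of other blood cells were present in the naive libraries of series 36, with Gzma at 8.2 to 20.1 TPM and S100a9 at 7.38 to 21.6 TPM, while in the naive controls of series 57 Gzma was at 0 and S100a9 at 0 to 0.214 TPM. Neutrophil transcripts were also present in CpG replicates 3 and 4 of both genotypes, where 5 markers summed to 14.8 and 122 TPM with Ikaros and to 6.8 and 18.4 TPM without it, against 0 to 0.206 TPM in replicates 1 and 2 and 20.9 to 83.4 TPM in the naive libraries of series 36. Counts of the cholesterol synthesis genes without CpG replicates 3 and 4 are given beside both CpG responses. For loss of Ikaros in CpG cells they are given at the end. The enzyme and neighbouring-list counts and the tests of differences between settings are not given without these replicates. In other comparisons with series 36 the part of these transcripts was not tested. By Y-linked transcripts the HEL arms each held 3 female and 2 male libraries, and the naive controls of series 57, the anergic and the CpG libraries were male. In the naive libraries of series 36, replicate 1 of each genotype was male and replicate 2 female. Sex thus differs in part between CpG and naive cells of both genotypes. In bulk libraries, fewer cells that express a gene and less of its RNA per cell cannot be told apart.

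**Figure D1:**
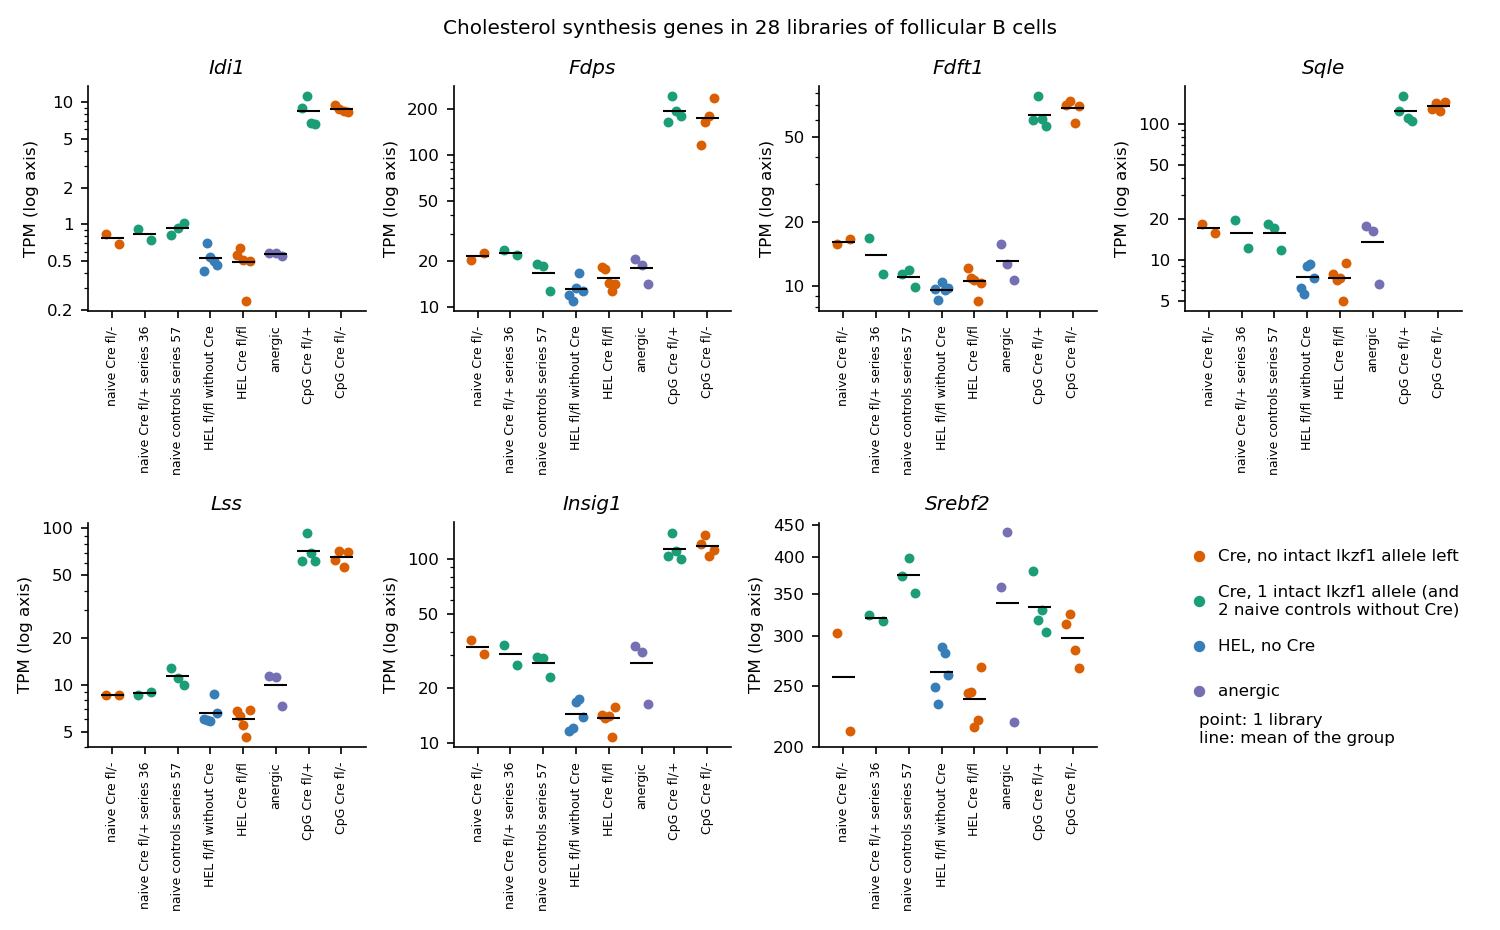
TPM (log axis) of 7 cholesterol synthesis genes in the 28 libraries, with 1 point per library and a line at the mean of each group. Idi1, Fdps, Fdft1, Sqle, Lss and Insig1 are higher in all 8 CpG libraries than in any other library, while the levels of Srebf2 overlap between CpG and naive libraries.

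TPM is scaled by gene length, so levels can be set side by side. Srebf2 was the most abundant and Idi1 the least abundant of the 7 genes in all 28 libraries. In the 20 libraries of directly sorted cells, Srebf2 ran from 212 to 438 TPM and rested on 8807 to 16262 reads. The enzymes were far lower in those libraries: Fdps at 11.01 to 23.7 TPM, Sqle at 5.06 to 19.7, Fdft1 at 8.59 to 16.7 and Lss at 4.61 to 12.8. Insig1 ran from 10.8 to 36.1 TPM and overlapped the range of Fdps. It was second to Srebf2 in 15 of the 20 libraries, and Fdps was in the other 5, all of them HEL libraries. Idi1 was near the detection limit, at 0.239 to 1.03 TPM or 10 to 25 reads, and passed the filter on low values in the comparisons with CpG libraries only, through those libraries.

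CpG stimulation went with a several-fold rise of the enzymes and of Insig1. Naive Cd23-cre Ikzf1(fl/+) cells (3 libraries) were compared with CpG cells of the same genotype (4 libraries), and 5 of the 6 genes other than Idi1 rose, where 43% of the 10527 genes tested were called higher. Idi1 is left out of this count because it passed the filter through the CpG libraries alone. Genes were called from limma where the p-value, after Benjamini-Hochberg adjustment over all genes tested, was under 0.05, and each ± beside a log2 difference, taken on log2(TPM + 1), is a standard error. The medians of the log2 differences were 2.54 over the 6 genes and 0.30 over all genes tested. Stimulus, culture and library-number series differ together here, and sex differs in part, so their parts cannot be told apart. The count was 5 with CpG replicates 3 and 4 left out, an alternative chosen after the data were seen. It was also 5 with only the naive library of series 57, in which Gzma was at 0, in a fit that takes this single library to vary like the CpG libraries.

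Fdps, which makes farnesyl diphosphate, stood at 165, 242, 193 and 179.5 TPM after CpG and at 23.7, 21.8 and 12.7 TPM in naive cells. The groups were far apart, with the lowest CpG library several-fold above the highest naive one, and the log2 difference was 3.30 ± 0.22 (limma, adjusted p = 2.59e-06; 10.1-fold in mean TPM). Sqle, the squalene oxidase step, stood at 124.5, 161, 110.2 and 106 TPM after CpG and at 19.7, 12.3 and 11.9 TPM in naive cells. Its groups did not overlap either, and its log2 difference was 3.03 ± 0.21 (limma, adjusted p = 2.98e-06; 8.57-fold). Lss, the ring-closing enzyme, stood at 61.7, 93.9, 69.7 and 61.8 TPM after CpG and at 8.62, 9.01 and 9.98 TPM in naive cells. The naive values were close together and all far below the CpG values, with a log2 difference of 2.81 ± 0.17 (limma, adjusted p = 1.71e-06; 7.8-fold).

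Fdft1, the squalene synthase, stood at 59.7, 77.2, 60.7 and 56.0 TPM after CpG and at 16.7, 11.4 and 9.92 TPM in naive cells. Its log2 difference was 2.26 ± 0.19, a 5.0-fold change of the mean, with no overlap of the groups (limma, adjusted p = 9.85e-06). Idi1, the isomerase, stood at 8.90, 11.2, 6.81 and 6.65 TPM after CpG and at 0.912, 0.75 and 1.03 TPM in naive cells. In reads this was 140 to 260 against 20 to 24, and the groups did not overlap, with a 9.33-fold ratio of mean TPM. Fitted with no filter on low values, Idi1 was called higher at 2.28 ± 0.22 (limma, adjusted p = 0.00014), which understates the ratio because of the pseudocount of 1. Insig1, the brake on SREBP2 cleavage, stood at 104, 138, 110.1 and 100.3 TPM after CpG and at 34.1, 26.6 and 23.0 TPM in naive cells. It rose with the enzymes but less steeply than Fdps, Sqle or Lss, by 1.99 ± 0.17 on the log2 scale (limma, adjusted p = 8.72e-06; 4.06-fold).

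Srebf2 was the exception and was not called. It stood at 381, 318, 329.5 and 305 TPM after CpG and at 324, 317 and 351.5 TPM in naive cells, so the groups overlapped. The log2 difference was 0.01 ± 0.11, with a 95% interval from -0.23 to 0.25 (limma, adjusted p = 0.954). When libraries were scaled by the median ratio over genes, which moves the median of all genes from 0.30 to 0.02, the difference of Srebf2 was -0.31 and was not called, and the same 5 genes were still called higher.

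CpG cells without Ikaros gave the same count. Against naive Cd23-cre Ikzf1(fl/-) cells (2 libraries), CpG cells of that genotype (4 libraries) had 5 of the 6 genes other than Idi1 higher, where 56.3% of 10808 genes were called higher, and the medians were 2.39 over the 6 genes and 0.56 over all genes tested. Fdps was at 116, 163, 180.0 and 236 TPM after CpG and at 20.5 and 22.8 TPM in naive cells, and Sqle at 129, 144, 125 and 145 TPM against 18.5 and 15.9 TPM. Both were well separated, with log2 differences of 2.91 ± 0.24 and 2.91 ± 0.11 (limma, adjusted p = 1.28e-05 and 3.04e-07). Lss rose by 2.79 ± 0.13, Fdft1 by 2.00 ± 0.12 and Insig1 by 1.79 ± 0.13. Idi1, which again passed the filter through the CpG libraries alone, averaged 8.79 TPM after CpG and 0.771 TPM in naive cells, and fitted with no filter it was called higher at 2.47 ± 0.12 (limma, adjusted p = 1.73e-05). With CpG replicates 3 and 4 left out the count was again 5. Srebf2 stood at 314, 326, 285 and 267 TPM after CpG and at 303.5 and 212.5 TPM in naive cells. These overlapped, and the difference of 0.23 ± 0.15 was not called (limma, adjusted p = 0.205), but with median-ratio scaling, under which the median of all genes falls from 0.56 to 0.03, it was called lower at -0.37. Without naive Ikzf1(fl/-) replicate 1 it was called higher at 0.48.

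The promoters of 3 genes that were higher in CpG libraries, Idi1, Lss and Insig1, and of Srebf2, which was not called, are printed here so that their letters can be compared. RefSeq promoter windows (GRCm38.p6) were at hand for 5 of the 8 genes, Hmgcs1, Idi1, Lss, Srebf2 and Insig1, and those of the 4 measured genes are shown. Each line gives the 250 bases before the gene's start, 5′ to 3′ on the strand of the gene, and capitals mark matches to the CCAAT box of NF-Y, a factor that works beside SREBP2. All 4 genes lie on the plus strand, and the windows are chr13:8885356-8885605 (Idi1), chr10:76531355-76531604 (Lss), chr5:28071162-28071411 (Insig1) and chr15:82147019-82147268 (Srebf2).
Idi1: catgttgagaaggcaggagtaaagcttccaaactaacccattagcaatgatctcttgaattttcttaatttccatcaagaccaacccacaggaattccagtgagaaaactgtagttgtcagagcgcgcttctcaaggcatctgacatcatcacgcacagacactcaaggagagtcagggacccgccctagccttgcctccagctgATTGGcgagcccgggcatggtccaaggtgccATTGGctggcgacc
Lss: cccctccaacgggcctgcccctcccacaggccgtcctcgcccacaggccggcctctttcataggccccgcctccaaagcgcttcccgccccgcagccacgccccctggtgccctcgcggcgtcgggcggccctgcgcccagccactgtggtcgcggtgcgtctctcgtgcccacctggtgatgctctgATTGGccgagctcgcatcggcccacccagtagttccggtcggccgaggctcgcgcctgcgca
Insig1: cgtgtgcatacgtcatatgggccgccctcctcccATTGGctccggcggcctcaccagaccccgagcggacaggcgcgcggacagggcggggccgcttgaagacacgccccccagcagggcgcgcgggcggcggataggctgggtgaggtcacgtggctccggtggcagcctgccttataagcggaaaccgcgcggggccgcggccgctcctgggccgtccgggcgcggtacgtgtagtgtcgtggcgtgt
Srebf2: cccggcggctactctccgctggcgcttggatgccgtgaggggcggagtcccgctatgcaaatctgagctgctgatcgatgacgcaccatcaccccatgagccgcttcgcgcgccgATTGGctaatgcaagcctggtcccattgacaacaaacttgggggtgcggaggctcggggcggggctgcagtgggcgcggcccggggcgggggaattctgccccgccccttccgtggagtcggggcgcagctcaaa

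Each of the 4 windows, and that of Hmgcs1, holds a CCAAT box, and in all 5 genes every match lies on the minus strand, so that it reads ATTGG above. Idi1 has 2 matches, at 45 to 41 and 14 to 10 bases before the start, and Lss, Insig1 and Srebf2 have 1 each. Over all 32851 promoters of the table, 33.8% hold CCAAT on either strand. The GC box of Sp1, GGGCGG, was found in all 5 windows and in 32.7% of all promoters. TCACNCCAC, the core of the sterol regulatory element that SREBP2 binds, was found on either strand in 1.05% of all promoters and, among the 5 genes, only in Hmgcs1, at 137 to 129 bases before the start. Of the other enzymes of the route, 13 had a promoter at hand and 0 held this string. The Srebf2 window holds tcaccccat, which differs from it in the last letter. A search for exact matches thus cannot show that a gene lacks the element. TGGGAA, a core motif of Ikaros, was found in 21.6% of all promoters and, among the 5, only in Hmgcs1. These are exact matches of letters on both strands, with overlaps allowed, and the windows of Sqle, Fdft1 and Fdps were not used here. Srebf2 thus shared both boxes with Idi1, Lss and Insig1.

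**Figure D2:**
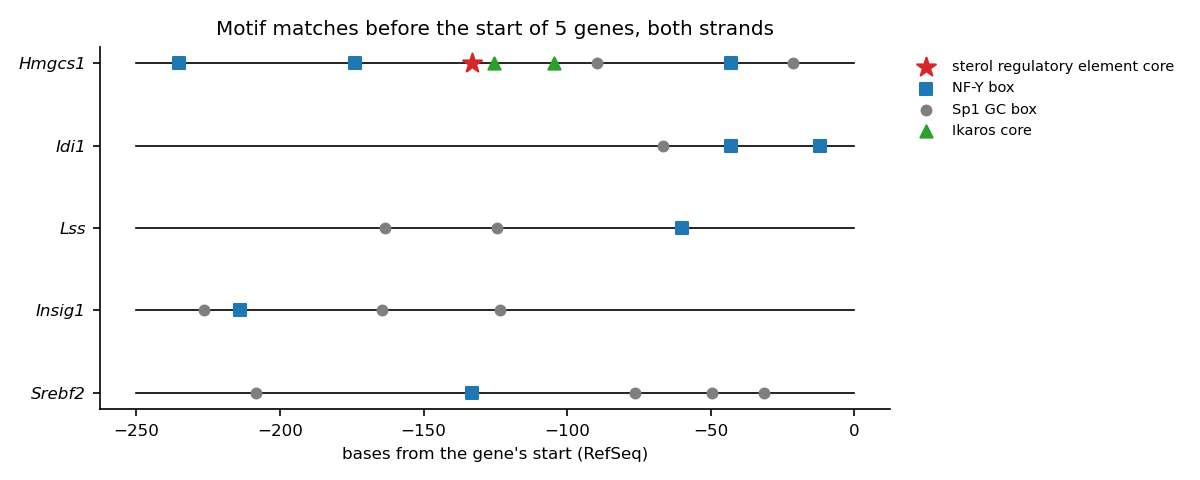
Positions of exact motif matches in the 250 bases before the start of 5 genes, as distance from the start, with both strands on 1 line. All 5 genes have at least 1 NF-Y box and 1 Sp1 GC box. An exact match to the sterol regulatory element core was found in Hmgcs1 only, which does not show that the others lack the element.

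The other 15 enzymes of the route rose with CpG almost as a whole. In cells with Ikaros 14 of 15 were called higher and none lower, with a median log2 difference of 1.96, and in cells without Ikaros 14 were called higher and 1 lower. Over all genes tested, 43% were called higher with Ikaros and 56.3% without it. The largest differences in cells with Ikaros were those of Hsd17b7 (2.52 ± 0.18), a sterol 3-ketoreductase, Acat2 (2.47 ± 0.27), the acetoacetyl-CoA thiolase at the entry, and Msmo1 (2.43 ± 0.17), which demethylates lanosterol derivatives. The smallest rises were those of Lbr (0.43 ± 0.12), Dhcr7 (0.78 ± 0.15) and Pmvk (0.83 ± 0.13). Ebp, the sterol isomerase, was the exception, at -0.27 ± 0.12 in cells with Ikaros (limma, adjusted p = 0.0754) and lower by -0.57 ± 0.11 in cells without it (limma, adjusted p = 0.00135). With median-ratio scaling 1 of the 15 was called lower in cells with Ikaros.

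Lists of neighbouring pathways gave mixed counts. Over all 10527 genes tested in cells with Ikaros, 4531 (43%) were called higher and 2214 lower. A count near these shares says nothing particular about its list. Some genes of these lists passed the filter through 1 group only, and a call of such a gene was bound to follow the filter, so counts without them are given too. Of 17 tested genes of SREBP control and sterol uptake, 6 were called higher and 5 lower in CpG cells with Ikaros (5 and 5 once 1 gene that passed through the CpG libraries alone is left out), with Tmem97 (2.95 ± 0.19) and the sterol carrier Stard4 (2.33 ± 0.20) higher and Mylip (-3.46 ± 0.22), a ubiquitin ligase gene, lower. Of 12 tested genes of fatty acid synthesis, 9 were higher and 1 lower. Of these Elovl6 and the desaturases Fads1 and Fads2 passed through the CpG libraries alone, and of the other 9 genes 6 were higher. Of 12 genes that use isoprenoids outside sterols, 7 were higher and none lower, and without Pdss1, which makes the ubiquinone side chain and passed through the CpG libraries alone, 6 of 11. Of 9 tested genes of efflux, esterification and oxysterols, 5 were lower and 1 higher. Without Abca1, Cyp27a1 and Osbpl3, which passed through 1 group alone, 3 of 6 were lower, among them the efflux pump Abcg1 (-4.01 ± 0.31), and none higher. All 14 cell cycle genes were higher, and 10 of them passed the filter in both groups. Their mean log2(TPM + 1) was 6.32 to 7.46 in CpG libraries and 2.57 to 3.79 in all others, so the rise of the sterol genes went with that of the cell cycle genes and the part of division in it was not tested. Of these named genes, Fads1 and Pdss1 carry the overlap mark.

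After HEL in the mouse several of the genes were lower. HEL cells without Cre (5 libraries) were compared with the 3 naive controls of series 57, and 4 of the 6 tested genes fell, Sqle, Insig1, Lss and Srebf2, where 38.1% of 10448 genes were called lower and 9.92% higher. The median log2 difference was -0.60 over the 6 genes and -0.16 over all genes tested. The same count of 4 was called lower with median-ratio scaling, which puts the median of all genes at 0.01 and calls 2004 genes lower and 2214 higher in place of 3979 and 1036, and also with a term for sex. Of the 3 naive controls, Cd23-cre Ikzf1(fl/+) replicate 3 also served in the CpG comparison.

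Sqle stood at 6.23, 5.62, 9.12, 9.34 and 7.37 TPM after HEL and at 18.6, 17.2 and 11.9 TPM in the naive controls. No HEL library reached the lowest control, which was Cd23-cre Ikzf1(fl/+) replicate 3, and the log2 difference was -0.98 ± 0.18 (limma, adjusted p = 0.00138). Insig1 stood at 11.6, 12.1, 16.7, 17.5 and 13.9 TPM after HEL and at 29.2, 29.1 and 23.0 TPM in the controls. Its groups did not overlap, and it fell by 0.88 ± 0.14 on the log2 scale (limma, adjusted p = 0.000707). Lss stood at 6.06, 5.90, 5.82, 8.69 and 6.56 TPM after HEL and at 12.8, 11.02 and 9.98 TPM in the controls. HEL replicate 4 was closest to the controls but still below them, and the difference was -0.70 ± 0.13 (limma, adjusted p = 0.00151).

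Srebf2, which was not called with CpG, was lower after HEL. It stood at 249.5, 234, 288, 282 and 261 TPM against 373, 399 and 351.5 TPM in the controls. The groups did not overlap, and the log2 difference was -0.51 ± 0.08 (limma, adjusted p = 0.000509), or 0.702 of the control mean. Fdps stood at 12.04, 11.01, 13.4, 16.7 and 12.8 TPM against 19.2, 18.6 and 12.7 TPM, and Fdft1 at 9.75, 8.63, 10.5, 9.59 and 9.82 TPM against 11.5, 11.9 and 9.92 TPM. Both overlapped the controls and were not called, at -0.32 ± 0.15 and -0.18 ± 0.09 (limma, adjusted p = 0.1 and 0.0994). Without the naive Cd23-cre Ikzf1(fl/+) library both were called lower, at -0.50 and -0.25, and Fdps was also called, at -0.40, without HEL replicate 4. Idi1, left out by the filter on low values, was at 0.418 to 0.71 TPM (13 to 22 reads) after HEL and at 0.821 to 1.03 TPM (21 to 24 reads) in the controls. These did not overlap, and fitted with no filter it was called lower at -0.34 ± 0.07 (limma, adjusted p = 0.00858), where 23.8% of 17129 genes were called lower.

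The 15 other enzymes divided. After HEL 7 were lower and 2 higher, with a median of -0.24, where 38.1% and 9.92% of all genes were called in these directions. Among those lower were 5 that act after lanosterol, Msmo1 (-0.88 ± 0.14), Hsd17b7 (-0.78 ± 0.12), Cyp51 (-0.55 ± 0.14), Sc5d (-0.54 ± 0.08) and Lbr (-0.47 ± 0.07). Acat2, Mvd, Tm7sf2, Nsdhl, Ebp and Dhcr7 were not called. The kinases Mvk (0.31 ± 0.11) and Pmvk (0.31 ± 0.09), which act one after the other starting from mevalonate, were higher (limma, adjusted p = 0.0396 and 0.0176), yet their values overlapped the controls. With a term for sex no enzyme was called higher, while 4 were with median-ratio scaling. The count of 2 fell to 1 without HEL replicate 1, 2, 3 or 4 or without the naive Cd23-cre Ikzf1(fl/+) library, and to 0 without naive replicate 2 of the controls without Cre. Of the 16 tested genes of SREBP control and uptake 6 were lower and 1, the lysosomal sterol carrier Npc2 (0.86 ± 0.11), was higher. Fasn, the fatty acid synthase, fell by 1.08 ± 0.07, and 5 of 9 tested genes of fatty acid synthesis were lower. The cell cycle list had 1 gene higher and 1 lower of 13 tested.

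**Figure D3:**
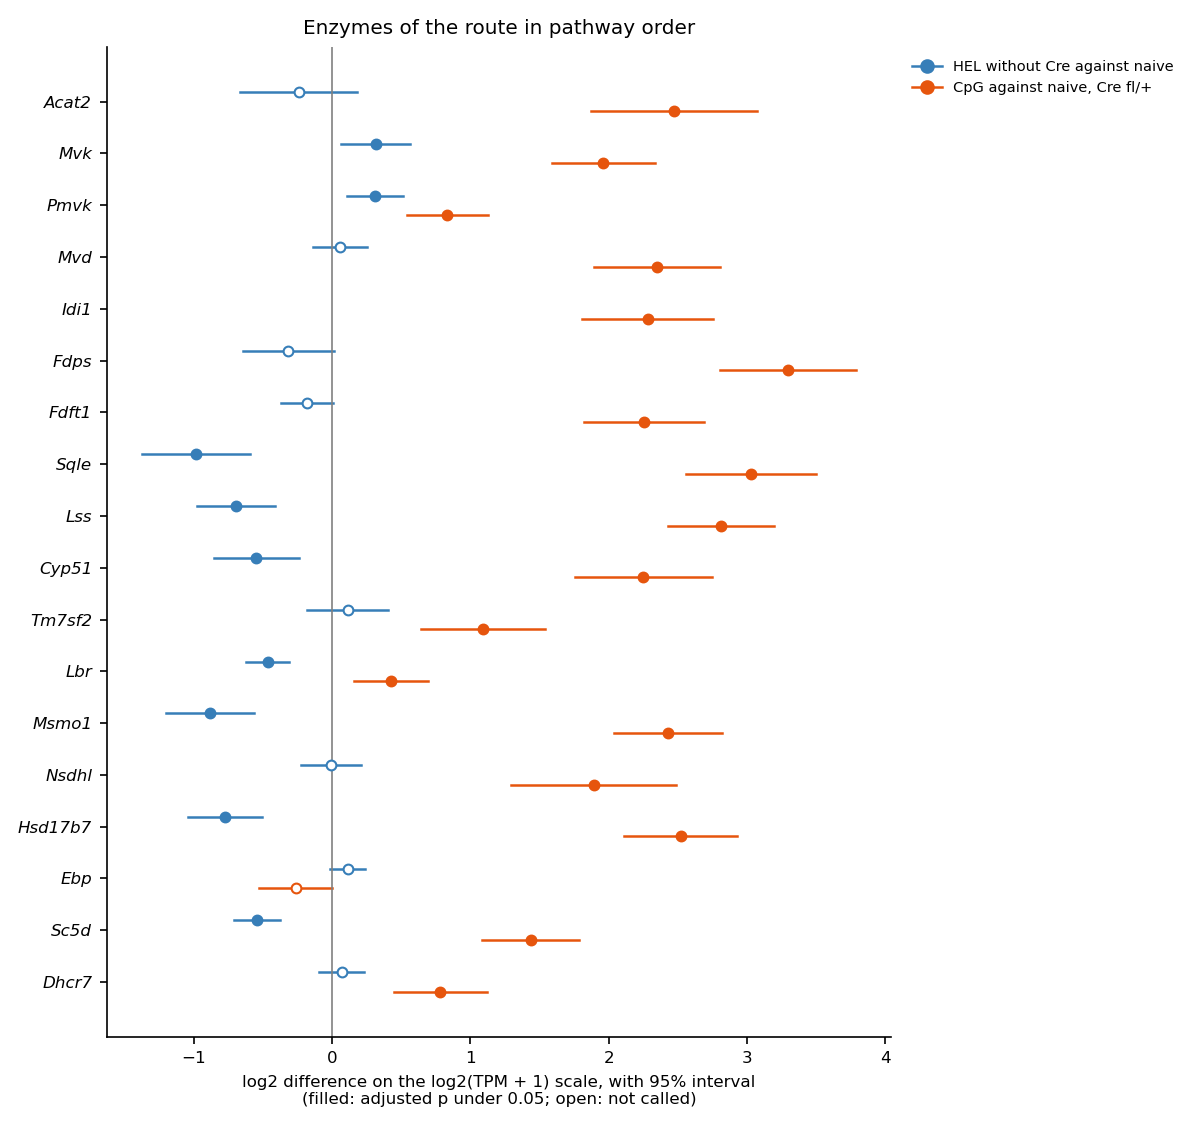
Log2 difference (horizontal axis, log2(TPM + 1) scale) with its 95% interval for enzymes of the route in pathway order, from HEL cells without Cre against naive controls (blue) and from CpG against naive Cd23-cre Ikzf1(fl/+) cells (orange). Filled points were called. With CpG all enzymes drawn but Ebp are called higher, while with HEL Sqle, Lss, Cyp51, Lbr, Msmo1, Hsd17b7 and Sc5d were called below 0 and Mvk and Pmvk above it. Idi1 passed the filter through the CpG libraries alone and is not drawn for HEL.

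Ikaros-deficient HEL cells, set against naive cells with Ikaros, gave the same count. Cd23-cre Ikzf1(fl/fl) HEL cells (5 libraries), set against the same 3 naive controls, had 4 of 6 genes lower, where 48.8% of 10538 genes were called lower and the median over all genes was -0.23. The 4 were again Sqle (-1.004 ± 0.17), Insig1 (-0.93 ± 0.12), Lss (-0.81 ± 0.13) and Srebf2 (-0.65 ± 0.08), with adjusted p in limma between 3.98e-05 and 0.000461. Fdft1 and Fdps were not called, at -0.07 ± 0.11 and -0.11 ± 0.15. Both HEL comparisons share their controls and so are not independent. The controls have Ikaros, mostly lack Cre and are all male. HEL, loss of Ikaros and Cre thus differ together here, sex differs in part, and their shares cannot be told apart. Median-ratio scaling left 4 genes lower here too, and put Fdft1 and Fdps at 0.16 and 0.13, not called.

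Anergic cells were split for the 6 tested genes. Against the 3 naive controls, 0 of 6 genes were called, where 7.37% of 10519 genes were called in either direction. At an unadjusted p under 0.05, none of the 6 passed either, and voom on recovered reads called none. The group was divided, with Sqle at 17.9 and 16.4 TPM in anergic replicates 1 and 2 and at 6.7 TPM in replicate 3. The first pair lay inside the range of the naive controls and the third among the HEL libraries. Insig1 was at 33.9, 31.3 and 16.3 TPM, Srebf2 at 358, 438 and 219 TPM, and Lss at 11.4, 11.2 and 7.33 TPM in the same order. Replicate 3 was the lowest of the 3 for each of these genes, and also for Fdps (20.7, 19.0 and 14.2 TPM) and Fdft1 (15.8, 12.7 and 10.7 TPM). It is the one that carries Cd23-cre, and its Ikzf1 level was 179 TPM against 304 and 319 TPM in the other 2. A single library with Cre allows no test of Cre in anergic cells. Idi1, left out by the filter on low values, did not divide in this way. Its log2(TPM + 1) minus the mean of the naive controls was -0.28, -0.28 and -0.31 in the same order. Fitted with no filter it was not called, at -0.29 ± 0.07 against naive (limma, adjusted p = 0.103). Against HEL cells without Cre it was 0.05 ± 0.06, also not called. It rests on 10 to 25 reads per library in directly sorted cells.

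Set against the lowest naive control gene by gene, 5 of 7 cholesterol synthesis genes were below it in anergic replicate 3. In each of the others 1 of 7 was below it, and this was Idi1. Over the 10526 genes with a mean of at least 1 TPM, 36.8% were below the lowest control in replicate 3 and 23.9% and 24.6% in replicates 1 and 2. The HEL libraries had 5 to 7 of 7 genes below the lowest control, with 48.6% to 65.0% of all genes below it. The naive control with Cre, Ikzf1(fl/+) replicate 3, was itself the lowest of the 3 controls for the 6 tested genes, for example at 12.7 TPM for Fdps against 19.2 and 18.6 TPM. Cre and the low values are together in 1 naive and 1 anergic library of series 57, and whether they are linked was not tested. In series 36, all 4 naive libraries carry Cre. They had Sqle at 12.3 to 19.7 TPM. Their mean for Lss was 8.82 TPM with Ikaros and 8.58 TPM without it, against 11.28 TPM in the naive controls of series 57. Series 36 holds no naive library without Cre, so it allows no test of Cre either.

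**Figure D4:**
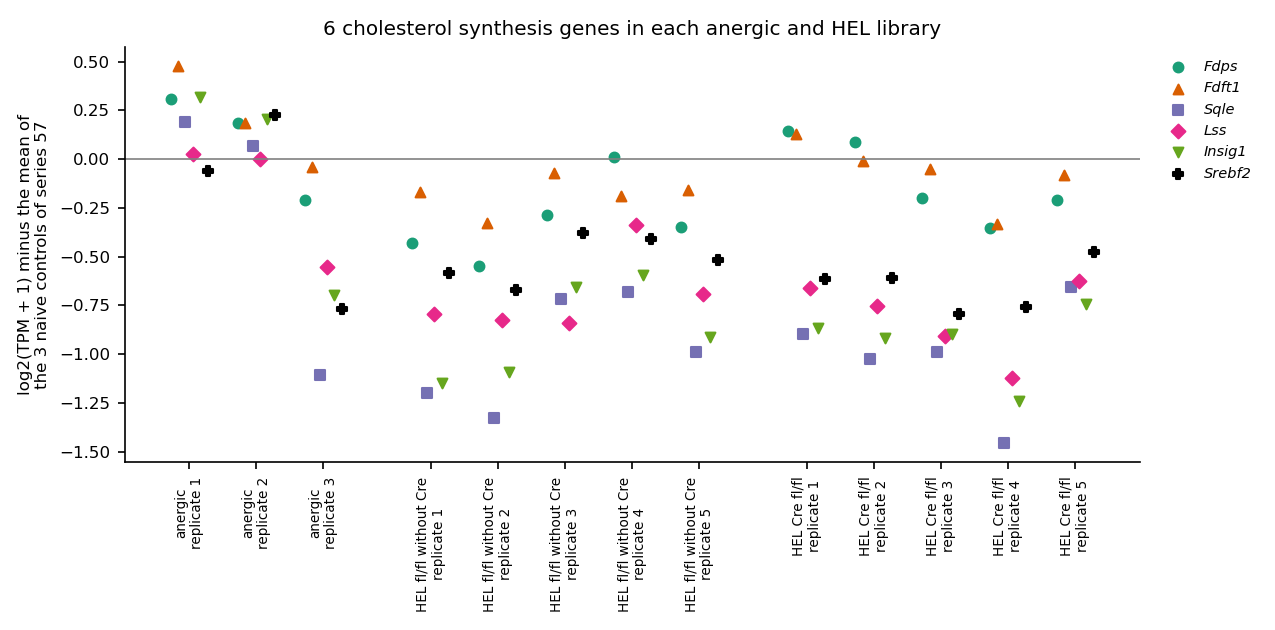
Log2(TPM + 1) of 6 genes in each anergic and HEL library, minus the mean of the 3 naive controls of series 57 (vertical axis). Anergic replicates 1 and 2 lie around or above 0, anergic replicate 3 and the HEL libraries lie mostly below it, and Sqle and Insig1 are among the lowest points of most HEL libraries.

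Compared directly with HEL cells without Cre (5 libraries), anergic cells (3 libraries) had 4 of 6 genes higher, where 36.8% of 10491 genes were called higher and the median over all genes was 0.23. The 4 were Insig1 (0.82 ± 0.22), Lss (0.52 ± 0.16), Fdps (0.41 ± 0.15) and Fdft1 (0.39 ± 0.12), with adjusted p in limma between 0.0141 and 0.0427. The values overlapped for all but Fdft1. These calls did not hold: with median-ratio scaling, which puts the median of all genes at -0.01 and calls 1073 genes higher and 1432 lower in place of 3860 and 565, 0 of 6 were called, and 0 with voom on recovered reads or a term for sex. The count was 0 without anergic replicate 1 or without replicate 2, and 6 without replicate 3. Leaving out 1 HEL library at a time gave counts from 1 to 4. Of the 15 other enzymes, 6 were higher, among them Msmo1 (0.68) and Cyp51 (0.64), and Ebp (-0.29) was lower, while median-ratio scaling gave 1 higher and 5 lower.

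Loss of Ikaros was compared within each setting, and none of these genes was called in any of them. Among naive cells (2 against 2 libraries) 0 of 6 genes were called, where 0.0199% of 10053 genes were called. Among HEL cells (5 against 5) 0 of 6 were called, where 36.9% of 10258 genes were, and among CpG cells (4 against 4) 0 of 7, where 14.9% of 10386 genes were. The HEL and CpG designs could thus call many genes, but this does not show how small a change of these genes they would call. With CpG replicates 3 and 4 left out, far fewer genes were called in CpG cells, as given at the end. The intervals below give the range for each gene. At an unadjusted p under 0.05 no gene passed in any of the 3, and voom on recovered reads also called none.

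In HEL cells Sqle stood at 7.92, 7.18, 7.38, 5.06 and 9.55 TPM without Ikaros, against the values from 5.62 to 9.34 TPM given above with it. The ranges almost coincided, and the log2 difference was -0.02 with a 95% interval from -0.35 to 0.31. Fdps stood at 18.4, 17.6, 14.3, 12.8 and 14.2 TPM without Ikaros and at 11.01 to 16.7 TPM with it, a difference of 0.21 ± 0.12 (limma, adjusted p = 0.17). Without HEL replicate 4 of the arm without Cre, it was called higher at 0.30. Insig1 and Lss had overlapping ranges, with log2 differences of -0.05 (95% interval -0.31 to 0.21) and -0.12 (-0.37 to 0.14). Srebf2 stood at 244, 244, 215, 221 and 268 TPM without Ikaros and at 234 to 288 TPM with it, with a difference of -0.14 (95% interval -0.30 to 0.02).

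In CpG cells the intervals of the log2 difference were -0.16 to 0.42 for Sqle, -0.16 to 0.36 for Fdft1, -0.25 to 0.43 for Idi1, -0.44 to 0.21 for Lss, -0.65 to 0.26 for Fdps, -0.21 to 0.33 for Insig1 and -0.37 to 0.05 for Srebf2. Every interval held 0. Fdps varied most among the Ikaros-deficient CpG libraries, from 116 TPM in replicate 1 to 236 TPM in replicate 4, a range that held 3 of the 4 values of the other arm. Among naive cells of series 36 the 2 libraries per arm gave wider intervals, such as -0.45 to 0.72 for Sqle and -0.75 to 0.08 for Srebf2, which stood at 303.5 and 212.5 TPM without Ikaros and at 324 and 317 TPM with it and did not overlap.

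Whether the effect of Ikaros loss differed between settings was tested directly. For CpG minus HEL, 0 of 7 genes were called, where 22.4% of 11050 genes were, and the log2 differences of differences ran from -0.41 (Fdps) to 0.15 (Sqle). For CpG minus naive, which also asks whether the rise with CpG depends on Ikaros, 0 of 7 were called, where 2.49% of 10688 genes were, and the values ran from -0.12 (Fdps) to 0.17 (Srebf2). The interval for Sqle in that test was -0.59 to 0.58, set beside rises of 3.03 with Ikaros and 2.91 without it. At an unadjusted p under 0.05 none of the 7 passed in either test. Idi1 entered both tests through the CpG libraries alone. It was at 0.239 to 1.03 TPM in directly sorted libraries, where the pseudocount of 1 flattens a difference, so its result says little.

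**Figure D5:**
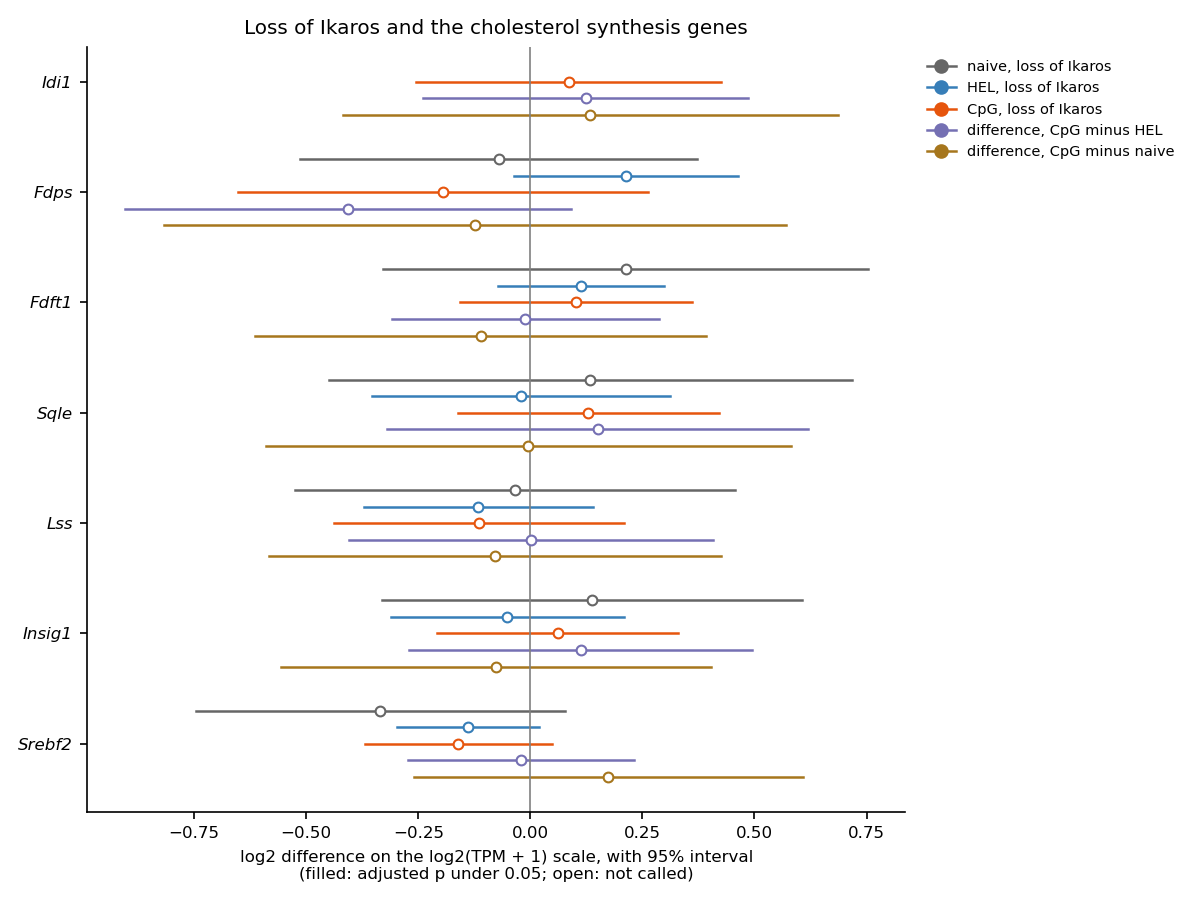
Log2 difference with 95% interval (horizontal axis, log2(TPM + 1) scale) between Ikaros-deficient and control cells in naive, HEL and CpG libraries, and the tests of the difference between settings. All points are open (not called), and every interval holds 0.

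Other genes of the route were called for loss of Ikaros in HEL cells, where Cre differs too. Of the 15 other enzymes 7 were called, 5 higher and 2 lower, where 36.9% of all genes were called in one direction or the other. By direction the calls over all 10258 genes tested were 1321 higher and 2469 lower, so that 34.9% of these calls were higher. Whether the enzymes differ from all genes in direction was not tested. Of the 7, 5 were higher, Mvd (0.55 ± 0.10), Pmvk (0.53 ± 0.07), Mvk (0.45 ± 0.12), Tm7sf2 (0.41 ± 0.13) and Ebp (0.29 ± 0.05), and 2 were lower, Dhcr7 (-0.41 ± 0.06) and Hsd17b7 (-0.34 ± 0.09). Mvk, Pmvk and Mvd act one after another, starting from mevalonate. In CpG cells 0 of the 15 were called, and the direct test of CpG minus HEL called Ebp alone, at -0.40 ± 0.09 (limma, adjusted p = 0.00335). Among the neighbouring lists the fatty acid desaturases Fads1 (0.68 ± 0.13) and Fads2 (1.30 ± 0.28) were called higher without Ikaros in CpG cells. In HEL cells they passed the filter through the Ikaros-deficient libraries alone, where they averaged 4.55 and 1.90 TPM against 0.726 and 0.182 TPM with Ikaros. Abca1 (-0.70 ± 0.10) was lower and Cyp27a1, a sterol hydroxylase (0.77 ± 0.10), higher in Ikaros-deficient HEL cells. Myeloid markers summed to 28.2 to 40.5 TPM in Ikaros-deficient HEL libraries and to 10.1 to 15.9 TPM in HEL libraries without Cre. In the same order dendritic cell markers summed to 16.1 to 23.6 against 4.24 to 7.37 TPM, and plasma cell markers to 170 to 210 against 140 to 161 TPM. Lower sums were those of FO B cell markers (12000 to 13500 against 14300 to 15400 TPM) and NK cell markers (4.77 to 8.95 against 9.92 to 12.9 TPM). The part of such cells in these differences was not tested.

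Across all 28 libraries the 6 genes other than Srebf2 kept close step. The 15 pairs among them had Pearson correlations of log2(TPM + 1) from 0.946 to 0.992, mostly from the gap between CpG and other libraries. After the mean of each group was subtracted, the correlations ran from 0.105 to 0.953 with a median of 0.616. The 6 pairs with Srebf2 gave 0.291 to 0.477 over all libraries and 0.167 to 0.744 within groups. Libraries that share a group or a library-number series are not independent, so these values are a description.

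The genes most like the 7, out of 8557 with a mean of at least 5 TPM, were found by correlation with the mean of their standardised levels. Over the 28 libraries the 10 closest included Hsd17b7 (0.99), Cyp51 (0.99), Aacs, Msmo1, Sc5d, Samm50, Tbl3, Galk1 and Hnrnpd, the last at 0.98. With group means subtracted, so that the gap between CpG and other libraries no longer counts, they included Cyp51 (0.92), Msmo1 (0.83), Hsd17b7 (0.83), Aldoc, Slc25a1, Mvk, Pcyt2 and Dhcr7 (0.73). Hsd17b7, Cyp51 and Msmo1, enzymes after lanosterol, appear in both rankings. Slc25a1 encodes the mitochondrial citrate carrier, which supplies carbon for acetyl-CoA in the cytosol.

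The order of the groups was alike for most genes. By mean TPM the 2 CpG groups came first for the 6 genes other than Srebf2, in ranges that overlapped each other and not those of the third group. The HEL groups came last for all of these genes, at 7.54 and 7.42 TPM for Sqle, 14.4 and 13.7 TPM for Insig1 and 6.61 and 6.01 TPM for Lss, again overlapping each other. Naive and anergic groups lay between and overlapped their neighbours in most cases. For Srebf2 the order was different: the naive controls of series 57 came first (375 TPM), then anergic (338), CpG with Ikaros (334), naive Ikzf1(fl/+) of series 36 (320), CpG without Ikaros (298), HEL without Cre (263), naive Ikzf1(fl/-) (258) and HEL without Ikaros (239), and each range overlapped that of the next group.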

How the data were processed

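RNA-seq of sorted B cells was used, with 1 table per library. The values are TPM as deposited by the authors. Per the submitters' processing notes, tools used in the series included TopHat 1.4.1 and featureCounts 1.5.0 with mouse build mm9, without stating their roles; the gene annotation is not given in the sources used here. Per the labels' protocols, RNA came from RNeasy columns and oligo-dT beads.

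TPM holds no depth by itself. Steps between the values of a gene gave back whole reads for 18843 of 18843 genes (tolerance 0.01). They served for depth and 1 alternative. Nothing in the labels says whether the replicates were separate mice. The p-values therefore reflect only how far these libraries vary, part of which may be technical. Each comparison was fitted to log2(TPM + 1) in limma 3.58.1 (R 4.3.3), with variances following a trend on the mean, two-sided tests and Benjamini-Hochberg adjustment over all genes tested. A gene was tested if it reached 1 TPM in a number of libraries equal to the size of the smaller group (4 for differences between settings). Fold changes on this scale understate low genes. The fit was tested on simulated data. All 28 libraries were kept.

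The members, the lists and the tests were chosen with earlier results of these data known. Named genes are the members, Ikzf1, the other 15 enzymes, and from each further list up to 4 called genes with the largest difference. Names marked for overlap with another gene model, among them Fdft1, Lss, Tm7sf2, Fads1, Pdss1 and Galk1, are uncertain. Msmo1 is listed under its older symbol. Promoter sequences are from RefSeq (GRCm38.p6) and were matched by symbol, not by coordinates of the mm9 files. Alternatives were a pseudocount of 0.1, no filter, median-ratio scaling, no trend, voom on recovered reads, terms for sex and for the block of CpG library numbers, naive libraries of 1 series, and leaving out each library. Leaving out CpG replicates 3 and 4 together and counting without Idi1 were added after the data were seen. Some genes of these lists are counted but not reported here by name.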

Additional observations from a re-analysis of the deposited data

Results flagged for a closer look

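Values far from the rest of their group were looked for in the HEL and CpG arms, over 22 genes in 4 groups, with Dixon's test at the 95% level. Of 88 groups 7 held such a value, and chance gives about 1 in 20. Lss was highest in HEL replicate 4 without Cre, at 8.69 TPM, with the next library at 6.56 TPM. The others were among the further enzymes. Nsdhl was highest in HEL replicate 3 without Cre (9.17 TPM, next 7.36 TPM), and Sc5d was lowest in HEL replicate 5 without Cre (13.0 TPM, next 14.1 TPM). In CpG cells without Ikaros, replicate 2 was highest for Mvk (88.4 TPM, next 71.0 TPM) and Tm7sf2 (13.3 TPM, next 8.74 TPM). In CpG cells with Ikaros, replicate 2 was highest for Pmvk (114.0 TPM, next 89.7 TPM) and Cyp51 (108.0 TPM, next 68.1 TPM).

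For Ebp the effect of loss of Ikaros differed between CpG and HEL cells, by -0.40 on the log2 scale in the direct test (limma, adjusted p = 0.00335), from 0.29 after HEL to a value not called after CpG.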

How the results depend on the processing

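Fdps, Sqle, Lss, Fdft1 and Insig1 were called higher with CpG in both genotypes under every alternative run, and Sqle, Insig1, Lss and Srebf2 were lower after HEL, in counts of 4 to 6 genes. No paired analysis was possible because the labels give no shared replicate numbers, the numbers used here being in accession order. Results that moved follow, and the cause was not tested. Srebf2 with CpG and with Ikaros was 0.01 and became -0.31 (median-ratio scaling), -0.31 (voom), -0.022 (term for sex) and -0.081 (only the naive library of series 57). Without Ikaros it was 0.23 and became -0.37, -0.39 and -0.030 under the first 3, so that 1 gene was called lower under scaling and 1 under voom. For anergic against HEL, 4 genes were higher, against 1 without a filter, 0 with scaling, 0 with voom and 0 with a term for sex, and 4425 of all genes were called, against 2505 with scaling and 2576 with voom. For Ikaros-deficient HEL against naive, Fdft1 became 0.16 (scaling) and 0.17 (voom), and Fdps 0.13 and 0.13. For loss of Ikaros in naive cells, Fdps became 0.041 and 0.049 and Lss 0.070 and 0.083, and the 2 genes called became 0 (pseudocount 0.1), 0 (no filter), 17 (scaling), 0 (no trend), 61 (voom) and 240 (term for sex). For loss in HEL cells, Sqle became 0.043 and 0.017 and Insig1 0.016 and 0.0032. For CpG minus HEL, Lss became -0.046 and -0.061. For CpG minus naive, the 266 genes called became 111 with voom.

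Leaving out 1 library at a time gave these ranges. Where this left a group with 1 sample, that sample was assumed to vary like the other group. In naive loss of Ikaros, 0 genes were called each time, with Sqle from -0.19 to 0.45, Fdft1 from -0.0465 to 0.47, Fdps from -0.14 to 0.0022 and Insig1 from -0.0355 to 0.31. In HEL loss, 0 to 1 of these genes was higher, with Sqle from -0.11 to 0.092 and Insig1 from -0.12 to 0.025. In CpG loss, 909 (without Ikaros-deficient replicate 3) to 1907 genes were called, with Idi1 from -0.0037 to 0.22, Lss from -0.18 to 0.020 and Insig1 from -0.0065 to 0.16. In anergic against naive, 323 to 1153 genes were called in place of 775, with 353 without anergic replicate 1, and 323, 381 and 394 without each naive control in turn, with Sqle from -0.52 to 0.13, Fdps from -0.085 to 0.25, Lss from -0.28 to 0.0115, Srebf2 from -0.42 to 0.083 and Insig1 from -0.24 to 0.26. In anergic against HEL, 2800 (without anergic replicate 1) to 5292 genes were called, and 0 to 6 of these genes. Srebf2 with CpG ran from -0.058 to 0.052 with Ikaros and from -0.030 to 0.48 without it. For CpG minus HEL, Fdft1 ran from -0.077 to 0.086, Lss from -0.089 to 0.14 and Srebf2 from -0.065 to 0.045. For CpG minus naive, 70 to 420 genes were called, moving over 1.5 times for 8 of the libraries, with Sqle from -0.32 to 0.32, Fdft1 from -0.37 to 0.15, Fdps from -0.28 to 0.053, Lss from -0.14 to 0.055, Srebf2 from -0.082 to 0.43 and Insig1 from -0.25 to 0.096. With CpG replicates 3 and 4 left out, chosen after the data were seen, 272 genes in place of 1551 were called for CpG loss, with Sqle at -0.057 and Idi1 at -0.11 and no gene of the 7 called. Idi1 rests on 10 to 25 reads in each directly sorted library.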
